A study of Mus musculus with 13 samples.

Results

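Collagen chains were followed in ribosome footprint profiles of mouse fibroblasts under endoplasmic reticulum (ER) stress. The chains were taken by symbol (Col, a number, the letter a and a number), and 44 of the 22406 symbols in the tables matched. They were put into 4 classes by the known structure of the protein, with 11 fibrillar chains, 6 basement membrane (type IV) chains, 6 type VI chains and 21 others. A chain was called expressed where its mean TPM (a transcript level per length, scaled to the same total in every library) was at least 2 over the libraries of a table, and 20 chains passed in mouse embryonic fibroblasts (MEFs), 15 in NIH3T3 cells and 14 in both. The 24 chains left out in MEFs reached at most 2.27 TPM in any library (Col25a1), and the 29 left out in NIH3T3 cells at most 2.17 TPM (Col7a1). At the limit itself, Col10a1 had the lowest mean of those kept in MEFs (5.07 TPM) and Col8a2 the highest of those left out (1.21). In NIH3T3 cells these were Col18a1 (2.93) and Col7a1 (1.49).

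The study sequenced the mRNA fragments covered by ribosomes in PERK WT and PERK −/− MEFs, each untreated or given 1 μM thapsigargin (Tg, which blocks the calcium pump of the ER) for 1, 2, 5 or 8 h. NIH3T3 cells, an established mouse fibroblast line with PERK, were untreated or given 200 nM Tg for 2 or 7 h. PERK is the ER stress kinase that phosphorylates eIF2α and so lowers overall translation, and the PERK −/− cells lack it in the untreated state as well. There was 1 library for each of the 13 conditions and hence no replicate spread, and conditions were not tested against each other. Cells were trypsinized and frozen without cycloheximide. Nothing in the labels says how many lines or animals the 2 MEF genotypes came from, so genotype and line cannot be told apart.

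Total expected counts were 2525029 to 11949174 in WT MEFs, 6735073 to 14799515 in PERK −/− MEFs and 2569965 to 11121006 in NIH3T3 cells, and 3 counts were equal to 0.203 to 1.19 CPM (counts scaled to the same library total). All 6 fibroblast markers listed were expressed in both tables, with a summed level of 3742 to 4245 TPM in MEFs and 4124 to 7524 TPM in NIH3T3 cells. Of these, Pdgfra passed in MEFs mainly through the PERK −/− libraries, with 4.72 to 10.8 TPM there and 0.27 to 2.79 TPM in WT MEFs. None of 19 markers of epithelial, endothelial, blood, cartilage, bone and muscle cells was expressed in MEFs, where the sum of each list stayed at or under 4.78 TPM. In NIH3T3 cells 3 of these markers passed the limit, and the sum of the epithelial list was 9.40 to 20.4 TPM. Eif2ak3, which encodes PERK, had 6.03 to 15.7 TPM (48 to 365 expected counts) in the 5 WT libraries. In the 5 PERK −/− libraries it had 5.21 to 17.2 TPM (74 to 142 counts). The TPM ranges overlap, but these counts are not scaled to the library totals. Relative to the library total, the count was lower in PERK −/− than in WT MEFs in the control and at each Tg time. By TPM, PERK −/− MEFs were lower at 1 and 2 h and higher in the control and at 5 and 8 h. Why the scales differ was not tested. A value over the whole coding sequence does not show a deletion of part of it.

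Collagens are the main structural proteins of connective tissue and are made in large amounts by fibroblasts. Each chain holds long runs of the repeat glycine-X-Y, in which X and Y are often proline and hydroxyproline, and 3 chains wind into a triple helix inside the ER before export. Prolyl and lysyl hydroxylases modify the nascent chains, the chaperone Serpinh1 (HSP47) binds the finished helix, and propeptides are cut off and the fibrils cross-linked outside the cell. Fibrillar collagens (types I, III, V and XI) form fibrils, type IV forms the network of basement membranes, and type VI forms beaded filaments around cells.

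The repeat is what the chains have in common in their coding sequence, so a stretch of 54 bases from the longest uninterrupted run is shown for 8 chains on which the results turn. Each is written 5′ to 3′ on the coding strand, and the capitals mark the codon of the repeated glycine. They were read from GRCm38 (the same assembly as mm10), each within 1 exon, with the GENCODE gene models, at chr11:94939904-94939957 on the plus strand (Col1a1), chr6:4515481-4515534 plus (Col1a2), chr1:45422386-45422439 minus (Col5a2), chr8:11247042-11247095 minus (Col4a1), chr10:76719623-76719676 minus (Col6a1), chr1:90791924-90791977 minus (Col6a3), chr9:79612916-79612969 minus (Col12a1) and chr16:57628039-57628092 minus (Col8a1).
Col1a1: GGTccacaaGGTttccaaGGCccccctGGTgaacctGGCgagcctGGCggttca
Col1a2: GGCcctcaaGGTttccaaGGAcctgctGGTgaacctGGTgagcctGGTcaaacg
Col5a2: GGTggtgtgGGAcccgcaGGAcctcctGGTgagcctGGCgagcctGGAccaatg
Col4a1: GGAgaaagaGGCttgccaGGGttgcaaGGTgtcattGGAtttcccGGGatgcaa
Col6a1: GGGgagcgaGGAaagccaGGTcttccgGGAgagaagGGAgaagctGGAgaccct
Col6a3: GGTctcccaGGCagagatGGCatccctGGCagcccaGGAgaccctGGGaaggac
Col12a1: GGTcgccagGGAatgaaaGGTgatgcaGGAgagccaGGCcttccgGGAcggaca
Col8a1: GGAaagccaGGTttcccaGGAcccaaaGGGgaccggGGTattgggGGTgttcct
The run was 338 triplets long in Col1a1, 339 in Col1a2 and Col5a2, 87 in Col6a1, 61 in Col8a1, 45 in Col6a3, 40 in Col4a1 and 32 in Col12a1. Glycine took 26.8% of the codons of Col1a1 and 28.6% of those of Col4a1, against 9.07% in Col6a3 and 9.17% in Col12a1, whose chains are mostly made of other domains. The chains expressed in MEFs were long and rich in G and C. Their median coding length was 1624.5 codons and their median GC content 59.6%, where all expressed genes had medians of 454 codons and 52.8%.

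Taken over the 44 genes, collagen made up 1.62% of the footprint counts of untreated WT MEFs, 2.14% of those of untreated PERK −/− MEFs and 1.79% of those of untreated NIH3T3 cells. In WT MEFs after 1, 2, 5 and 8 h of Tg the share was 1.20%, 1.21%, 1.33% and 1.31%. In PERK −/− MEFs it was 1.09%, 0.818%, 1.22% and 1.33% at the same times, and in NIH3T3 cells 1.04% at 2 h and 0.811% at 7 h. Every Tg library was thus below its own control, and the PERK −/− cells went from the highest share of the 13 libraries to the second lowest within 2 h. The exact (Clopper-Pearson) 95% intervals of these shares, which like all intervals here cover counting error only, were at most 0.027 percentage points wide. These are shares of a library, so they describe collagen relative to other proteins being made. In the study's polysome profiles overall translation fell under Tg in WT MEFs. For PERK −/− MEFs the paper reports no early fall and only a slight late one. A footprint count also does not tell less mRNA from less translation of it.

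**Figure D1:**
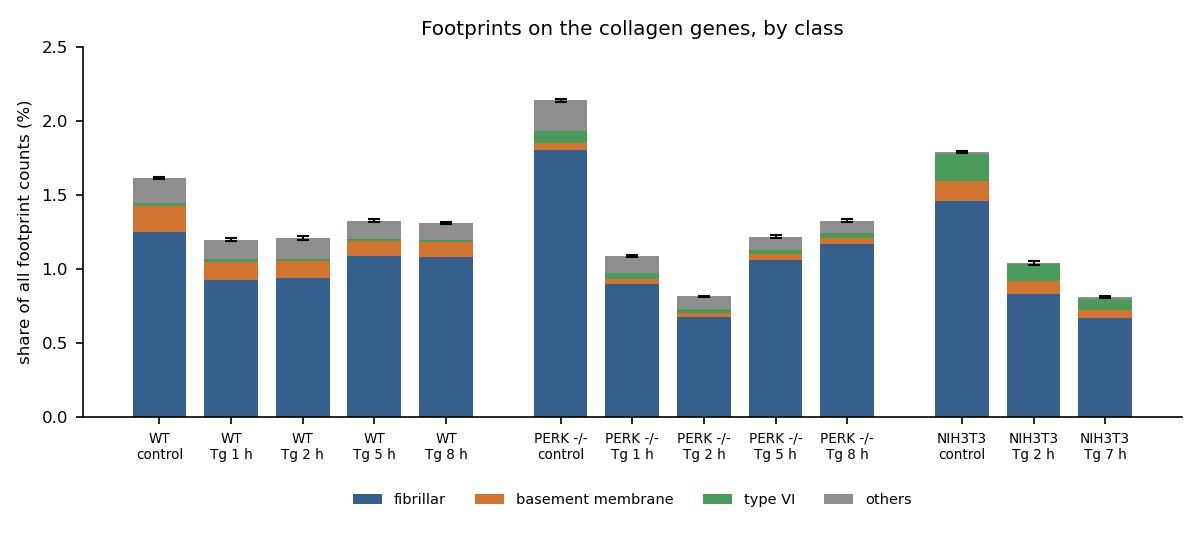
Share of all expected footprint counts (percent, y axis) on the 44 collagen genes in each of the 13 libraries, stacked by class; bars on top are exact 95% intervals for counting error, 1 library per bar. The share was 1.62% in the WT control against 1.20 to 1.33% under Tg, and 2.14% in the PERK −/− control against 0.818 to 1.33%.

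As a ratio to the control, the share in WT MEFs was 0.743, 0.748, 0.822 and 0.810 at these 4 times. The ratios in PERK −/− MEFs were 0.510, 0.382, 0.571 and 0.621, and those in NIH3T3 cells 0.582 at 2 h and 0.452 at 7 h. The PERK −/− ratios share the untreated PERK −/− library, which had the highest share of all, so the Tg libraries were also compared with each other. From 2 to 8 h of Tg the collagen share became 1.62-fold higher in PERK −/− MEFs and 1.08-fold higher in WT MEFs, and from 2 to 7 h it went to 0.777 of its value in NIH3T3 cells. By level, PERK −/− MEFs were below WT MEFs at 2 h of Tg (0.818% and 1.21%) and 0.019 percentage points above them at 8 h (1.33% and 1.31%).

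Chain by chain, PERK −/− MEFs had 14 of 20 expressed chains at least 2-fold lower than the control at 2 h of Tg, where 5.78% of the 10432 expressed genes were. For these counts TPM values under 4 were raised to 4, so that a chain with less than 8 TPM in the control could not reach 2-fold, which left 17 chains that could in PERK −/− MEFs and 14 in WT MEFs. The count was 3 of 20 at 1 h (3.38% of expressed genes), 8 at 5 h (4.77%) and 5 at 8 h (2.73%), and no chain was at least 2-fold higher at any time (0.719%, 0.623%, 3.26% and 3.28% of expressed genes at 1, 2, 5 and 8 h). In WT MEFs 1 chain (Col18a1) was at least 2-fold lower at 1 h and none at 2, 5 and 8 h, against 2.29%, 4.01%, 3.55% and 3.87% of expressed genes. The single chain at least 2-fold higher in WT MEFs was Col26a1 at 1 and 2 h, with none at 5 and 8 h, where the expressed genes gave 4.33%, 5.66%, 5.86% and 6.45%. In NIH3T3 cells 5 of 15 chains were at least 2-fold lower at 2 h (3.76% of 10117 expressed genes) and 9 at 7 h (8.06%), with none higher at 2 h (5.76%) and Col26a1 at 7 h (7.01%).

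The median log2 change of the chains was −0.31, −0.38, −0.46 and −0.50 in WT MEFs at 1, 2, 5 and 8 h, where the median over all expressed genes was 0.00 to 0.01. In PERK −/− MEFs it was −0.89, −1.27, −0.88 and −0.69, with −0.06, −0.11, 0.00 and 0.04 for all expressed genes together. In NIH3T3 cells the chains had medians of −0.65 at 2 h and −1.21 at 7 h, with −0.13 and 0.00 over all expressed genes. In NIH3T3 cells the median was thus lower at 7 h, and in PERK −/− MEFs it was furthest from the control at 2 h. In WT MEFs the median steps between times were small. The median change of the chains was −0.005 from 1 to 2 h, −0.04 from 2 to 5 h and −0.02 from 5 to 8 h. At these steps 9, 8 and 6 of the 20 chains rose and 10, 11 and 12 fell. The median over all expressed genes was 0.00 at each step, and the share of them that rose is not given here. Single chains moved more than the medians. From 1 to 2 h they ran from −0.66 (Col6a3) to 0.64 (Col18a1), and from 2 to 5 h from −1.40 (Col26a1) to 0.74 (Col3a1).

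**Figure D2:**
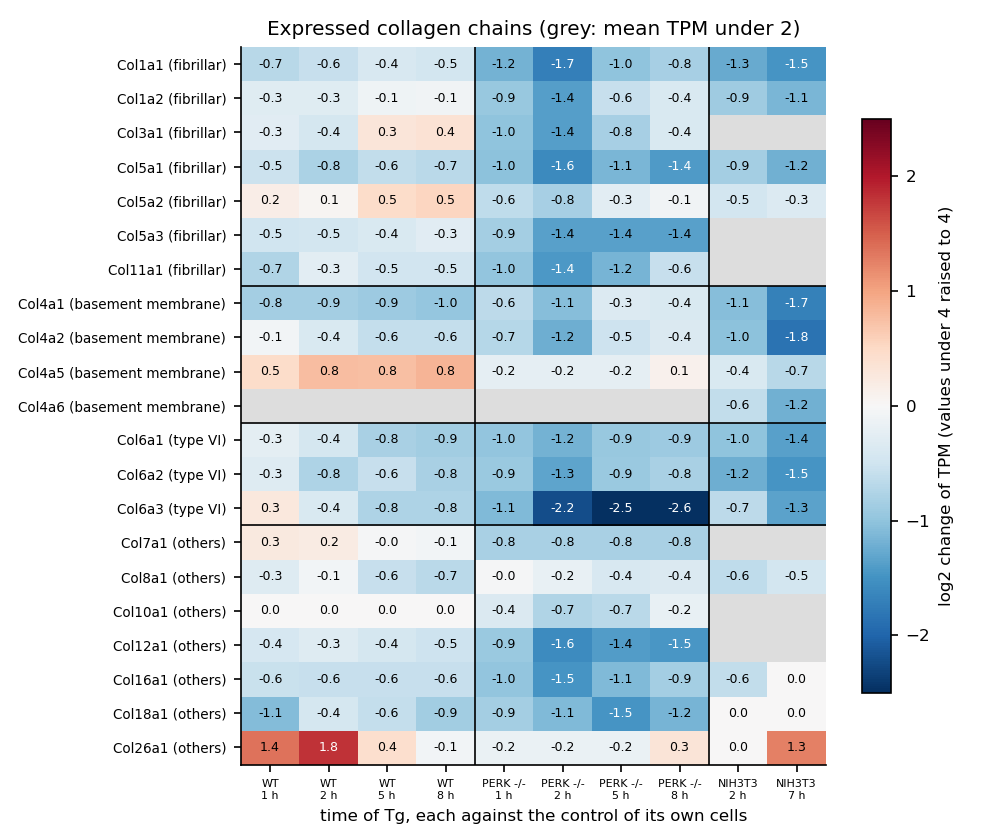
Log2 change of TPM (colour and number in each cell, values under 4 raised to 4) of the 21 chains expressed in either table, by class, for each Tg library against its own control; grey marks a chain with a mean TPM under 2 in that table. In PERK −/− MEFs at 2 h, 14 of 20 chains were at least 2-fold lower, and in WT MEFs at 2 h none.

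GC content moved with these values. When a trend of the change on GC content over all expressed genes was taken out of each library, the median at 2 h became −0.59 in WT and −0.84 in PERK −/− MEFs, and 3 and 7 chains were at least 2-fold lower (3.63% and 2.38% of genes with a GC value). At 8 h it became −0.84 in WT and −0.75 in PERK −/− MEFs, with 7 and 5 chains at least 2-fold lower (3.51% and 3.104%). In NIH3T3 cells the median became −0.47 at 2 h and −1.10 at 7 h. The chains stayed below the other expressed genes in each of these comparisons, while the distance between the genotypes depended on this step. Whether GC content or the sequencing of GC-rich fragments had a part in the changes was not tested.

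The fibrillar chains carried most of the collagen footprints, with 77.1 to 88.1% of them over the 13 libraries. Col1a1 and Col1a2, the chains of type I collagen, together held 60.0 to 72.3% of the collagen counts of a library. Col1a1 in WT MEFs had 1400.4 TPM in the control and 870.5, 941, 1060.3 and 1015 TPM at 1, 2, 5 and 8 h of Tg. In PERK −/− MEFs it had 2207 TPM in the control and 975, 672, 1095 and 1245 TPM. In NIH3T3 cells it had 743, 309 and 269 TPM in the control and at 2 and 7 h. All 10 Tg libraries lay below their own control, and the PERK −/− control was the highest of the 13 libraries. The log2 change of its counts per library total was −0.57 (95% interval −0.59 to −0.54) in WT MEFs and −1.64 (−1.66 to −1.62) in the PERK −/− ones at 2 h, and −1.46 (−1.50 to −1.43) in NIH3T3 cells at 7 h.

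Col1a2, the partner chain, had 899.7, 727, 728, 834 and 842 TPM in WT and 921, 479, 357, 617 and 712 TPM in PERK −/− MEFs, in the order of the control and 1, 2, 5 and 8 h. In NIH3T3 cells it had 1939, 1049.5 and 883 TPM. It was closer to its control than Col1a1 was in each of the 10 Tg libraries. In the triple helix of type I collagen 2 chains of Col1a1 join 1 of Col1a2, and the ratio of their TPM was 1.56 in untreated WT MEFs and 1.20 to 1.29 under Tg. It was 2.40 in untreated PERK −/− MEFs and 1.75 to 2.03 under Tg, and 0.383, 0.294 and 0.305 in NIH3T3 cells, where Col1a2 was the higher chain throughout. The 2 tables were scaled separately, library by library, and levels are set across them with this limit.

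Col3a1, which encodes type III collagen of pliable tissue, had 55.8, 46.0, 41.1, 68.5 and 71.5 TPM in WT and 144, 72.1, 55.2, 81.1 and 110.4 TPM in PERK −/− MEFs. In WT MEFs it was below the control at 1 and 2 h and above it at 5 h (log2 change 0.29, 0.21 to 0.38) and 8 h (0.36, 0.29 to 0.43), and in PERK −/− MEFs below it at each time. In NIH3T3 cells it was at most 1.67 TPM. Col5a2, a chain of type V collagen, which is built into type I fibrils and limits their width, went another way in WT MEFs than most chains. It had 229, 257, 238, 316 and 331 TPM in WT and 454, 292, 254, 378 and 425 TPM in PERK −/− MEFs, and 219, 160.0 and 172 TPM in NIH3T3 cells. The 4 WT Tg libraries were all above their control, by 0.06 to 0.53 (log2 change of counts), and the 4 PERK −/− ones all below theirs, by −0.10 to −0.76. The WT value at 2 h (0.06, 0.00 to 0.12) was −0.02 when scaled by TMM and −0.003 when scaled by DESeq2.

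Col5a1, the other main chain of type V, did not share this pattern, with 106, 73.2, 61.2, 69.2 and 66.4 TPM in WT and 149, 73.3, 49.8, 68.0 and 56.1 TPM in PERK −/− MEFs. Its log2 change at 8 h was −0.67 (−0.73 to −0.62) in WT MEFs and −1.42 (−1.49 to −1.35) in the PERK −/− ones, where that of Col5a2 was 0.53 (0.50 to 0.57) and −0.10 (−0.14 to −0.07). In NIH3T3 cells at 7 h the chains were at −1.20 (−1.29 to −1.12) and −0.34 (−0.39 to −0.30). In each of the 3 kinds of cell Col5a2 was thus the less reduced of these type V chains. Col5a3, the remaining one, was weak (6.29 TPM in the WT and 10.2 TPM in the PERK −/− control) and had the largest change of the fibrillar class in PERK −/− MEFs at 8 h, −1.76 (−2.06 to −1.46), from 382 to 125 counts. Col11a1, a chain of type XI collagen, had 11.4 to 19.1 TPM in WT and 3.47 to 10.8 TPM in PERK −/− MEFs, and each Tg library was below its control.

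**Figure D3:**
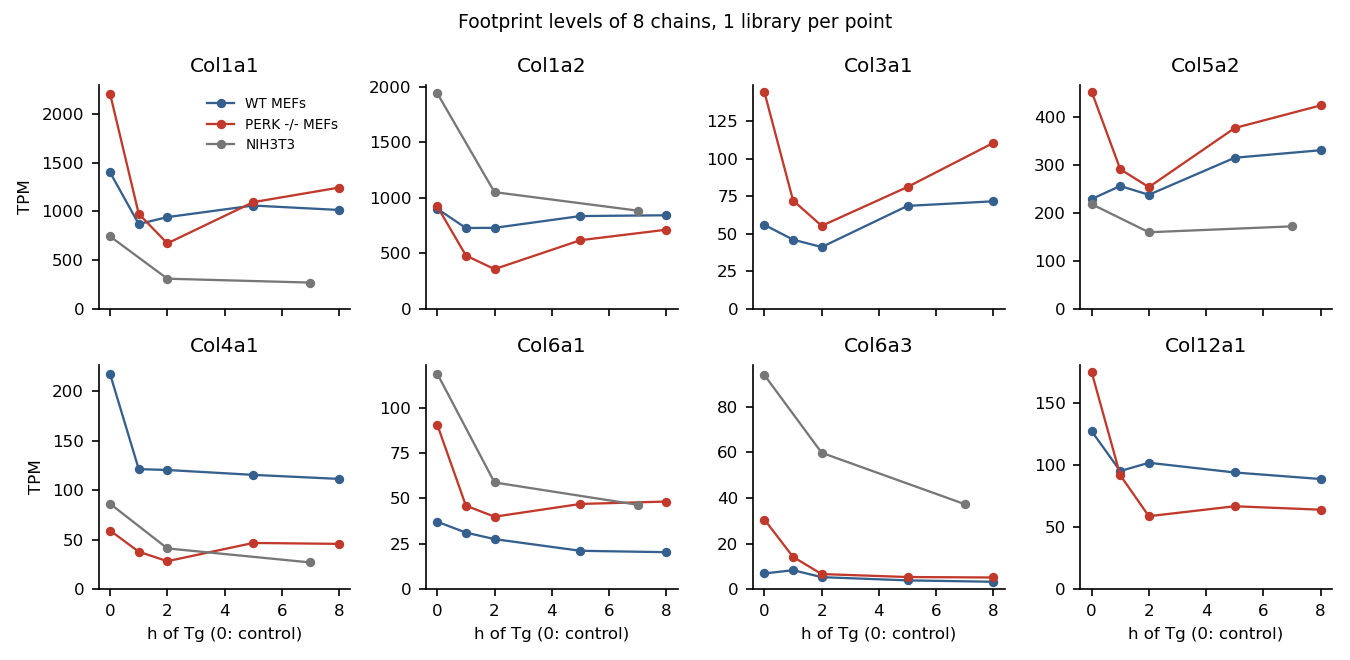
TPM (y axis, from 0) of 8 chains against hours of Tg (x axis, 0 is the control) in WT MEFs, PERK −/− MEFs and NIH3T3 cells, 1 library per point and no error bars; cells in which a chain had a mean TPM under 2 are left out. Col1a1, Col1a2, Col3a1 and Col5a2 were lowest at 2 h in PERK −/− MEFs and higher again at 5 and 8 h, while Col12a1 stayed near its 2 h level and Col6a3 was lower still.

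In the basement membrane class, Col4a1 and Col4a2 form the common type IV molecule together. Their genes lie head to head on chromosome 8 of GRCm38, where the annotated start of Col4a1 (11312889) and that of Col4a2 (11312805) overlap. Col4a1 had 217, 121, 120.5, 116 and 111 TPM in WT, 59.2, 37.8, 28.2, 46.7 and 45.8 TPM in PERK −/− MEFs, and 86.3, 41.1 and 26.9 TPM in NIH3T3 cells. Its log2 change at 8 h was −0.96 (−1.004 to −0.92) in WT MEFs and −0.38 (−0.47 to −0.29) in the PERK −/− ones, so that unlike most chains it was further below its control in WT MEFs. Col4a2 had 100.4, 96.0, 77.6, 66.8 and 66.3 TPM in WT and 35.6, 21.7, 15.2, 25.0 and 27.9 TPM in PERK −/− MEFs. Although the genes share a start region, Col4a2 was close to its control at 1 h in WT MEFs (−0.05, −0.12 to 0.02), where Col4a1 was at −0.83 (−0.89 to −0.76), and the ratio of their TPM went from 2.17 in the control to 1.27.

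Col4a5 and Col4a6, a further pair of neighbours on the X chromosome that form type IV molecules of some epithelia and muscle, were high in NIH3T3 cells. They had 63.6, 48.8 and 39.2 TPM and 42.8, 27.9 and 18.5 TPM there in the control and at 2 and 7 h. In MEFs Col4a6 stayed under 1 TPM, and Col4a5 had 5.63 to 10.1 TPM in WT and 2.97 to 5.06 TPM in PERK −/− MEFs. In WT MEFs Col4a5 was above its control at each time, by 0.47 (0.18 to 0.74) at 1 h and 0.85 (0.66 to 1.05) at 8 h, from 362 counts in the control. In NIH3T3 cells the 4 type IV chains were all below the control at 7 h, by −0.70 to −1.84, and Col4a1 (−1.68) and Col4a2 (−1.84) had the lowest values of the 15 chains.

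The type VI chains Col6a1, Col6a2 and Col6a3 assemble as 1 molecule and were below their controls in most libraries. Col6a1 had 37.1, 31.1, 27.5, 21.1 and 20.3 TPM in WT, 90.5, 45.9, 39.9, 46.9 and 48.2 TPM in PERK −/− MEFs and 119, 58.7 and 46.4 TPM in NIH3T3 cells. Its mRNA has been described as a substrate of IRE1-dependent decay in mouse fibroblasts. Col6a2 was alike, with log2 changes at 8 h of −0.78 (−0.995 to −0.56) in WT MEFs and −0.81 (−0.95 to −0.67) in the PERK −/− ones, next to −0.87 and −0.92 for Col6a1. For these 2 chains the genotypes did not differ beyond counting error at 8 h. Col6a3 had 30.5, 14.1, 6.59, 5.29 and 5.09 TPM in PERK −/− MEFs, with log2 changes of −1.07, −2.11, −2.47 and −2.63 at 1, 2, 5 and 8 h, the last of which was the lowest of the 20 chains. In WT MEFs Col6a3 had 6.86, 8.29, 5.24, 3.82 and 3.21 TPM, where the change at 8 h was −1.09 (−1.28 to −0.91), and in NIH3T3 cells 93.9, 59.8 and 37.3 TPM. Between 2 and 8 h of Tg the fibrillar share of PERK −/− MEFs became 1.72-fold higher and the basement membrane share 1.60-fold higher. The type VI share became 1.08-fold higher, but its chains differed. Col6a3 went on down (−0.52, −0.69 to −0.34), while Col6a1 (0.19, 0.08 to 0.29) and Col6a2 (0.45, 0.30 to 0.59) rose.

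Among the others, Col12a1, a chain that lies along the surface of type I fibrils, had 127, 95.1, 102, 94.0 and 88.7 TPM in WT and 175, 91.8, 58.7, 66.8 and 64.0 TPM in PERK −/− MEFs. It was nearly absent from NIH3T3 cells, with 0.150 to 0.740 TPM. At 8 h its log2 change was −0.53 (−0.57 to −0.50) in WT MEFs and −1.46 (−1.51 to −1.41) in the PERK −/− ones, and in the latter it stayed at its 2 h level (0.04, −0.01 to 0.09, from 2 to 8 h). Col8a1, a short chain that forms hexagonal networks, changed least in PERK −/− MEFs at the early times, with 66.4, 65.1 and 58.4 TPM in the control and at 1 and 2 h, and then 50.6 and 51.8 TPM. In WT MEFs it had 74.0, 59.4, 70.6, 49.5 and 46.3 TPM. Col18a1, the source of endostatin, had 11.7, 5.51, 8.58, 7.68 and 6.42 TPM in WT and 11.1, 6.12, 5.17, 3.21 and 4.96 TPM in PERK −/− MEFs, and its log2 change at 8 h was −0.86 (−1.07 to −0.66) and −1.16 (−1.45 to −0.88).

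The 4 remaining chains of this class were weak. Col7a1, of the anchoring fibrils of skin, had 7.39 to 9.21 TPM in WT MEFs and 7.04 TPM in the PERK −/− control against 1.90 to 3.78 TPM under Tg, and Col16a1 had 13.9 to 20.8 TPM in WT and 4.31 to 11.9 TPM in PERK −/− MEFs, with 4.24 to 6.57 TPM in NIH3T3 cells. For Col16a1 the scales differed in WT MEFs, with a log2 change at 1 h of −0.56 in TPM and −0.24 (−0.44 to −0.04) in counts. Col10a1, known from growth plate cartilage, passed the limit through the PERK −/− libraries alone, where it had 7.50 to 12.6 TPM, and it had 8 counts in the WT control, 11 at 1 h and 0 at 2, 5 and 8 h. Col26a1, the single chain at least 2-fold above a control, had 4.17, 10.8, 14.7, 5.57 and 3.90 TPM in WT MEFs, 4.46, 1.33, 0.95, 0 and 5.54 TPM in PERK −/− MEFs and 2.65, 4 and 9.64 TPM in NIH3T3 cells. It rests on 36 to 58 counts in WT MEFs, 0 to 47 in PERK −/− MEFs and 14 to 70 in NIH3T3 cells, and its log2 change in WT MEFs at 2 h was 1.81 (1.21 to 2.40).

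PERK −/− MEFs were set against WT MEFs by the difference of the 2 log2 changes of counts for each chain with counts in all 4 libraries involved. Each change is relative to its library total, and overall translation fell under Tg in WT but little in PERK −/− MEFs. A lower change in PERK −/− MEFs therefore does not show a greater loss of collagen synthesis, whose absolute amount was not measured. The change was lower in PERK −/− MEFs for 17 of 20 chains at 1 h, 19 of 19 at 2 h, 15 of 18 at 5 h and 15 of 19 at 8 h, with median differences of −0.61, −0.87, −0.66 and −0.37. Of all expressed genes with counts in these libraries, 57.6%, 58.6%, 54.4% and 51.9% were lower in PERK −/− MEFs, with medians of −0.14, −0.18, −0.08 and −0.03. The interval of the difference lay below 0 for 15, 18, 14 and 11 chains and above 0 for 2, 0, 2 and 3 chains. Those above 0 were Col4a1 and Col8a1 at 1 and 5 h, and Col4a1, Col4a2 and Col8a1 at 8 h. The 20 chains at 1 h, and the 15 with an interval below 0, include Col10a1 (−2.51, −3.86 to −1.17). It passed the limit on the mean TPM through the PERK −/− libraries alone and had 8 and 11 counts in the WT libraries compared. At high counts these intervals are narrow, and the share of all expressed genes with an interval off 0 is not given here. The difference for Col6a3 was −1.35 (−1.57 to −1.13) at 1 h and −1.77 (−2.06 to −1.48) at 2 h, and that for Col1a1 −1.07 (−1.11 to −1.04) at 2 h and −0.37 (−0.39 to −0.35) at 8 h. That for Col4a1 at 8 h was 0.58 (0.48 to 0.68).

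On TPM with the floor, the median difference over the 20 chains was −0.55, −0.89, −0.64 and −0.29 at 1, 2, 5 and 8 h, and over all expressed genes −0.09, −0.19, −0.04 and 0.00. With the GC trend taken out of each library it was −0.16, −0.23, −0.24 and 0.03, and 14, 16, 15 and 9 of 20 chains were lower in PERK −/− MEFs, against 50.2%, 51.0%, 49.96% and 50.4% of all genes with a GC value. The difference between the genotypes was thus much smaller once GC content was taken into account, and at 8 h the median was on the other side of 0. With TMM factors 16, 18, 17 and 16 of 20 chains were lower, against 43.9%, 46.2%, 48.0% and 48.9% of expressed genes. Col10a1, among these 20 chains, was under the floor of 4 TPM in every WT library. Its WT change on TPM with the floor was therefore 0 at each time, and the sign of its difference came from the PERK −/− libraries alone.

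**Figure D4:**
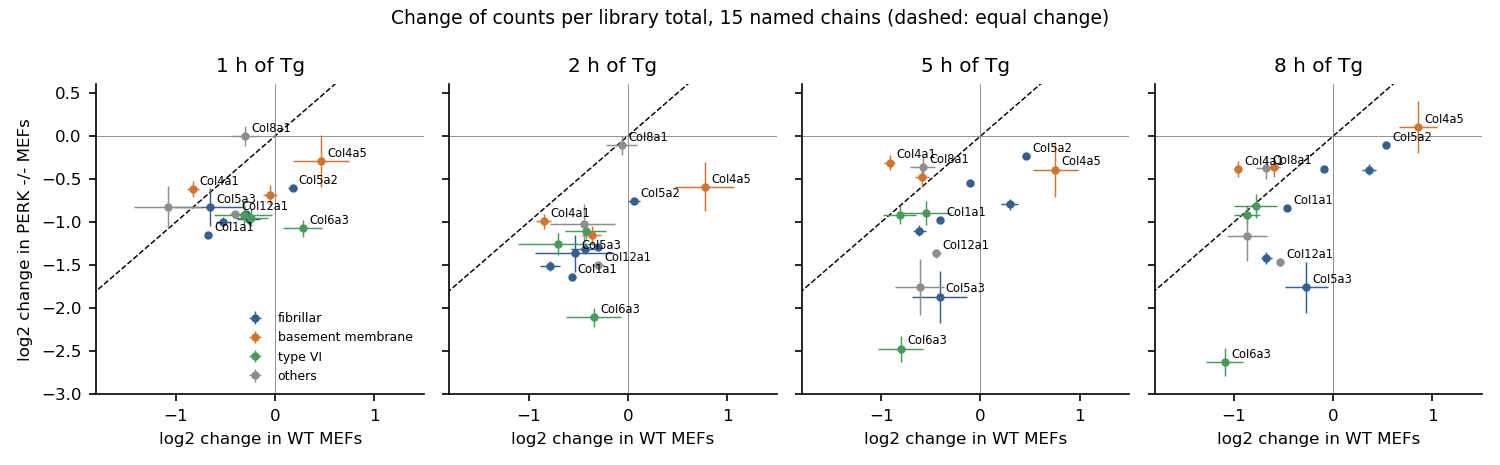
Log2 change of expected counts per library total in WT MEFs (x axis) and PERK −/− MEFs (y axis) at 1, 2, 5 and 8 h of Tg for the 15 named chains expressed in MEFs; bars are exact 95% intervals for counting error and the dashed line marks equal change. At 2 h each point is below the line, and at 5 and 8 h Col4a1, Col4a2 and Col8a1 are above it, Col4a2 at 5 h by less than its counting error (0.11, −0.02 to 0.25).

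Untreated PERK −/− MEFs differed from untreated WT MEFs in both directions. The 3 type VI chains were at least 2-fold higher, Col6a3 by a log2 difference of 2.22 (2.10 to 2.34), Col6a2 by 1.91 (1.75 to 2.06) and Col6a1 by 1.28 (1.18 to 1.38), and the type VI share of footprints was 0.0753% against 0.0228%. The type IV chains Col4a1 (−1.88, −1.95 to −1.81) and Col4a2 (−1.50, −1.58 to −1.41) were at least 2-fold lower, and Col4a5 was at −0.27 (−0.54 to −0.004). Of the 7 fibrillar chains 6 were higher and 1 was lower, with a median of 0.66 on TPM with the floor. Of the 10432 expressed genes 5969 were higher. Col3a1 was the highest fibrillar chain at 1.36 (1.30 to 1.43), and Col11a1 was the lower one at −0.82 (−0.99 to −0.66). The fibrillar share of footprints was 1.44-fold that of untreated WT MEFs. In all, 5 of 20 chains were at least 2-fold higher (6.04% of expressed genes) and 2 lower (1.97%), where Col3a1 and Col10a1 made up the 5. Col10a1 passed the limit on the mean TPM through its PERK −/− libraries alone, so its direction was fixed by that limit. The median over the 20 chains was 0.28, with 0.08 over all expressed genes. Col1a2 stayed within 0.03 (0.01 to 0.05) of its WT level, and TMM and DESeq2 size factors put it at −0.13 and −0.11. These are 2 libraries, and each PERK −/− change above was measured from the untreated PERK −/− one.

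For the machinery that folds, exports and processes collagen, 52 genes were listed by role, of which 43 were expressed in MEFs and 35 in NIH3T3 cells. In WT MEFs 2, 6, 6 and 8 of 43 were at least 2-fold lower at 1, 2, 5 and 8 h, where 2.29%, 4.01%, 3.55% and 3.87% of expressed genes were. At these times 0, 1, 3 and 4 were at least 2-fold higher, with 4.33%, 5.66%, 5.86% and 6.45% of expressed genes. In PERK −/− MEFs 3, 7, 5 and 5 were lower (3.38%, 5.78%, 4.77% and 2.73% of expressed genes) and 0, 0, 0 and 2 higher (0.719%, 0.623%, 3.26% and 3.28%). In NIH3T3 cells 7 and 8 of 35 were lower at 2 and 7 h (3.76% and 8.06%) and none higher (5.76% and 7.01%). The list had a median log2 change of −0.57 in PERK −/− MEFs at 2 h and −0.16 at 8 h, against −0.16 and −0.02 in WT MEFs and −0.67 and −0.68 in NIH3T3 cells at 2 and 7 h. It was thus less reduced in PERK −/− MEFs at 2 h than the chains themselves (−1.27), where all expressed genes had a median of −0.11. In NIH3T3 cells the list and the chains were alike at 2 h (−0.67 and −0.65) and apart at 7 h (−0.68 and −1.21). In WT MEFs they were alike at 1 h (−0.28 and −0.31) and apart at 8 h (−0.02 and −0.50).

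The chaperone Serpinh1 was among the most translated genes of the list. It had 1691, 1684, 1678, 2120.4 and 2205 TPM in WT, 2285, 1816, 1718, 2757 and 3466 TPM in PERK −/− MEFs, and 2340.4, 1253 and 1654 TPM in NIH3T3 cells. P4hb, the subunit of prolyl 4-hydroxylase that is also a disulfide isomerase, had 1077, 1008, 939, 1244 and 1274 TPM in WT and 1481, 1289, 1241, 1761 and 2559.5 TPM in PERK −/− MEFs. Both were above their controls at 5 and 8 h in either MEF genotype while Col1a1 and Col1a2 were below theirs. In NIH3T3 cells Serpinh1 and P4hb were below the control at 2 and 7 h, with 1380, 875 and 1296 TPM for P4hb. P4ha1, the catalytic subunit of the same enzyme, had 172, 100.5, 81.2, 87.3 and 79.6 TPM in WT and 216, 147, 146, 186 and 215 TPM in PERK −/− MEFs, so that at 8 h it was at −1.06 (−1.15 to −0.97) in WT MEFs and at 0.03 (−0.05 to 0.11) in PERK −/− MEFs.

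Plod2, a lysyl hydroxylase, had 99.2, 56.0, 45.2, 47.3 and 44.0 TPM in WT and 64.8, 46.6, 38.0, 41.3 and 49.2 TPM in PERK −/− MEFs. P3h4, a partner of a lysyl hydroxylase in the ER, was at least 2-fold lower at the last time in all 3 kinds of cell, with log2 changes of −1.69 in WT MEFs, −1.75 in PERK −/− MEFs and −1.66 in NIH3T3 cells. Sec24d, a coat protein of the vesicles that leave the ER, was the opposite in MEFs, at 1.30 (1.23 to 1.38) in WT MEFs and 1.26 (1.16 to 1.35) in the PERK −/− ones at 8 h. Crtap, part of the prolyl 3-hydroxylase complex, had 72.1 to 145 TPM in MEFs and was listed at 0 in the 3 NIH3T3 libraries, as were Tll1 and Pcolce2, of propeptide removal.

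Outside the cell, Lox, which cross-links collagen, had 340.2, 397, 375, 499 and 535 TPM in WT and 838, 659, 567, 744 and 885 TPM in PERK −/− MEFs, and 3262, 1852 and 1750.2 TPM in NIH3T3 cells. Its relative Loxl3 was at least 2-fold lower at 8 h in both genotypes (−1.01 and −1.12). In WT MEFs at 8 h Tll1 (−1.35) and Pcolce2 (−1.70) were at least 2-fold lower, and so were the collagen-binding receptors Itgb1 (−1.26) and Mrc2 (−1.25), while Loxl4 (1.05) and the collagen receptor Ddr2 (1.30) were at least 2-fold higher. In PERK −/− MEFs at 8 h Tll1 (−1.04) and Mrc2 (−2.04) were at least 2-fold lower. In NIH3T3 cells at 7 h the genes at least 2-fold lower with at least 100 counts in both libraries were P3h4, Plod1 (−1.25), Bmp1 (−1.76), Adamts2 (−1.62), Mrc2 (−1.74) and Mmp14 (−1.41), the last a membrane-bound collagenase.

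**Figure D5:**
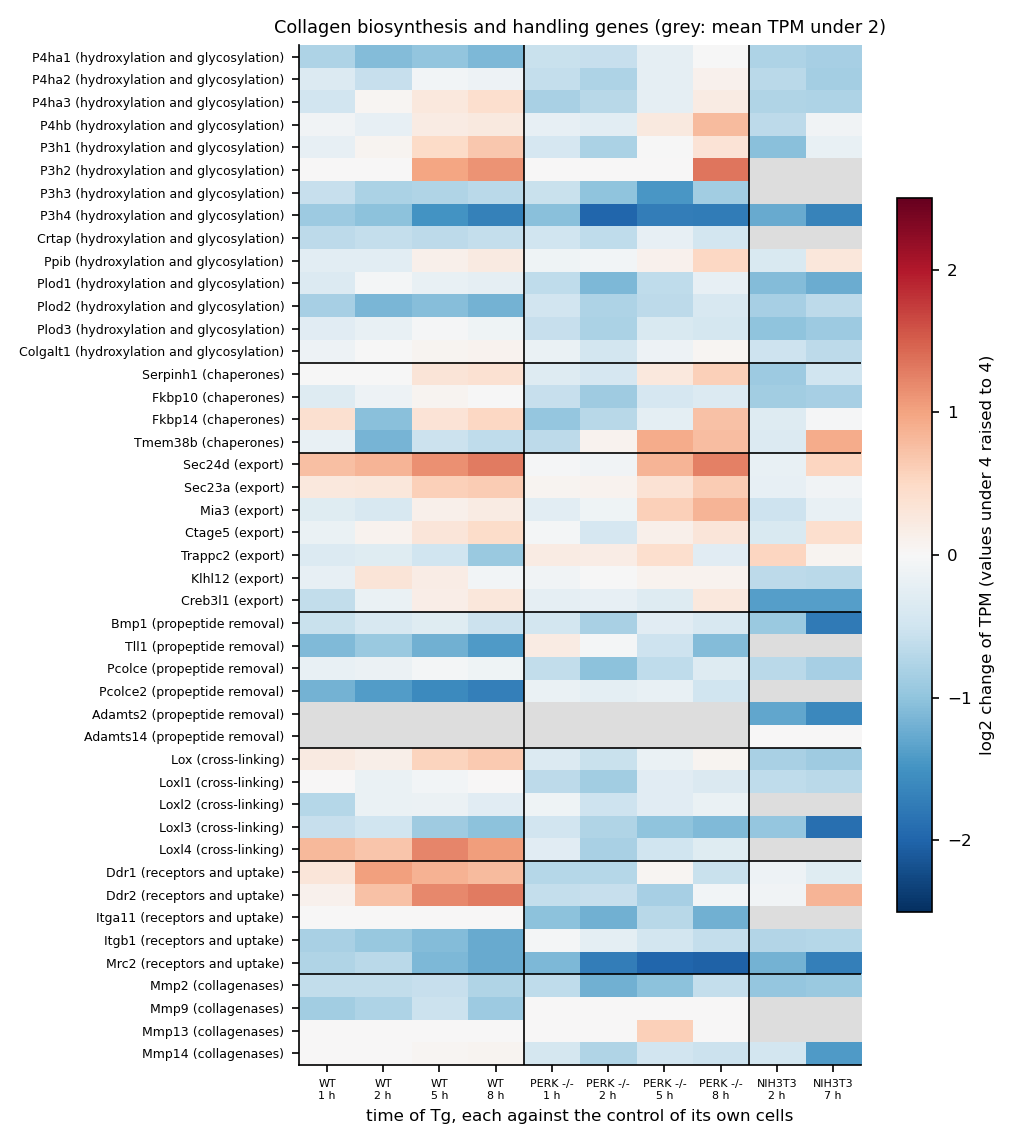
Log2 change of TPM (colour, values under 4 raised to 4) of the listed collagen biosynthesis and handling genes expressed in either table, by role, for each Tg library against its own control; grey marks a mean TPM under 2. Sec24d, Sec23a, Serpinh1 and P4hb are above the control at 8 h in both MEF genotypes, and P3h4, Loxl3 and Mrc2 below it.

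The promoters of 17 of the 21 chains expressed in either table were found among the RefSeq windows of GRCm38.p6 (250 bases before to 50 after the start). The letters CCAAT, searched on both strands, were in 9 of 17 windows and in 41.1% of 27025 genes. The ER stress element of ATF6, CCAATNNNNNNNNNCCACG, whose first letters are the motif above, was in none of the 17 and in 0.137% of genes. The letters TGATGNAA, a core of the sites of ATF4 and CHOP dimers, were in none and in 4.51% of genes. No match says only that these letters are not in this window.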

How the data were processed

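Ribosome footprints of 13 libraries (5 WT MEF, 5 PERK −/− MEF and 3 NIH3T3, 1 per condition) were analysed as gene tables. Per the methods, the authors used reads of 22 to 34 nt and discarded those that STAR placed on ribosomal or transfer RNA. Bowtie2 placed the others on mm10 RefSeq coding sequences, from which 30 nt had been taken off either end, and transcripts under 100 nt were not considered. RSEM gave the deposited expected counts, which were whole numbers, and the deposited TPM values, which are scaled per length within each library. The MEF and NIH3T3 libraries are in separate tables. Versions of these tools are not given in the sources used here. Date-like text stood in place of 25 symbols, none of them a collagen.

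TPM under 4 was raised to 4 and 2-fold was the threshold, as in the study's methods. A gene was expressed at a mean TPM of at least 2 within a table, whereas the methods state that limit for the mean of all samples. Log2 changes of single chains are ratios of expected counts per library total with exact conditional 95% intervals. Intervals of differences between genotypes are normal approximations on log counts. Both cover counting error only, and single libraries allowed no test of a condition. Chains given in every library had a mean TPM of at least 20 in a table, or the largest change of their class at 8 h in either genotype with at least 100 counts in both libraries, and others are named where they were at least 2-fold apart or to account for every chain. Biosynthesis genes are named at 2-fold and at least 100 counts in both libraries at 8 h (7 h in NIH3T3 cells), with 5 named whatever their change. The chains, classes and lists were chosen with earlier results of these data known.

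The alternatives were a floor of 1, a pseudocount of 1, a filter at a mean TPM of 5 or none, a 3-fold threshold, TMM factors (edgeR 4.0.16), DESeq2 1.42.0 size factors, a share of summed TPM, and removal of a lowess trend (fraction 0.3, statsmodels 0.14.6) on coding GC content or length. The GC trend for counts of chains, the length trend and the scalings of the genotype difference were chosen after seeing the data. Calculations used Python 3.11.15 and R 4.3.3 and were tested on simulated data.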

Additional observations from a re-analysis of the deposited data

Results flagged for a closer look

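For 1 chain and 3 genes of the biosynthesis list, the 4 WT Tg libraries and the 4 PERK −/− Tg libraries lay on opposite sides of their own controls. The share of all expressed genes with this pattern is not given here, so these numbers say nothing about collagen genes as a group. The difference between the genotypes was not tested, as each condition was 1 library. For Col5a2 the median log2 change of counts in PERK −/− MEFs minus that in WT MEFs was −0.74, and with TMM or DESeq2 size factors the WT library at 2 h was no longer above its control. For Loxl4, a lysyl oxidase relative, the difference was −1.33, with changes of 0.83, 0.70, 1.22 and 1.05 in WT and −0.25, −0.74, −0.47 and −0.32 in PERK −/− MEFs at 1, 2, 5 and 8 h, and its lowest count was 95. For Ddr2, a collagen receptor, it was −1.50, with 0.13, 0.73, 1.20 and 1.30 in WT and −0.56, −0.49, −0.79 and −0.08 in PERK −/− MEFs. For Mmp14 it was −0.53, with WT changes of 0.02 to 0.07 and PERK −/− ones of −0.41 to −0.67, and with TMM or DESeq2 size factors 0 of 4 WT libraries were above their control, so that the opposite sides were lost. For Loxl4 and Ddr2 they held with both kinds of factor.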

How the results depend on the processing

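No paired analysis was possible because the labels give no replicate numbers and each condition was 1 library, so no replicate could be left out either. The genotypes were set side by side at matched times only, which are not replicates. At a 3-fold threshold the chains lower than the control were 0 in WT MEFs at 1 h, 0, 2, 1 and 1 in PERK −/− MEFs at 1, 2, 5 and 8 h, 0 and 2 in NIH3T3 cells at 2 and 7 h, and 1 in untreated PERK −/− against WT MEFs (0.220%, then 0.498%, 0.920%, 1.42% and 0.671%, 0.257% and 1.96%, and 0.556% of expressed genes). Those higher were 0 in WT MEFs at 1 h, 0 in NIH3T3 cells at 7 h and 3 in untreated PERK −/− MEFs (1.07%, 2.01% and 1.98%). The 3 include Col10a1, whose direction was fixed by the limit on the mean TPM. With TMM factors, and likewise with DESeq2 size factors, 1 chain was at least 2-fold lower in WT MEFs at 5 h, 1 at 8 h, 1 in PERK −/− MEFs at 1 h and 2 in NIH3T3 cells at 2 h (4.51%, 4.84%, 2.05% and 2.29% of expressed genes with TMM). In PERK −/− MEFs at 2 h both kinds of factor gave 11 chains instead of 14 (2.92% of expressed genes with TMM and 3.15% with DESeq2). At 5 h both gave 7 instead of 8 (4.47% and 4.44%). The change of Col5a2 in WT MEFs at 2 h reversed to −0.022 (TMM) and −0.00297 (DESeq2), and that of Col1a2 between the untreated genotypes to −0.13 and −0.11. TMM factors moved all genes by 0.10 and 0.14 in PERK −/− MEFs at 1 and 2 h and by −0.16 between the untreated genotypes. With the GC trend removed, the chains at least 2-fold lower were 2, 3, 2 and 7 in WT MEFs, 0 and 7 in PERK −/− MEFs at 1 and 2 h, and 1 in NIH3T3 cells at 2 h (2.13%, 3.63%, 3.37% and 3.51%, 1.77% and 2.38%, and 1.78% of genes). The median then became −0.59, −0.80 and −0.84 in WT MEFs at 2, 5 and 8 h and −0.59 in PERK −/− MEFs at 1 h. With the length trend removed, 1 chain was at least 2-fold lower in WT MEFs at 8 h (4.45% of genes). The count was then 12 in PERK −/− MEFs at 2 h (3.62%) and 1 in NIH3T3 cells at 2 h (1.93%), and the WT median at 2 h was −0.47. A floor of 1 gave 1 lower chain in WT MEFs at 8 h (4.92% of expressed genes). A pseudocount of 1 gave 0 in WT MEFs at 1 h (2.48%). As a share of summed TPM, the log2 change of collagen was −0.27 and −0.29 in WT MEFs at 5 and 8 h, −0.99, −1.44 and −0.64 in PERK −/− MEFs at 1, 2 and 8 h, and −0.91 in NIH3T3 cells at 2 h. Without a filter on the mean TPM the median over the 44 chains was 0 in every Tg library, where most chains were under the floor. With a floor of 1, a pseudocount of 1 or a mean TPM of at least 5 the medians moved by −0.10 to 0.05, with TMM factors by −0.08 to 0.21 and with DESeq2 size factors by −0.09 to 0.18. The cause of the moved values was not tested. Depth limits chains under 100 counts, such as Col26a1.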
